A study of Homo sapiens with 12 samples.

Results

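The proteasome genes described here are the rows whose symbol is PSMA, PSMB, PSMC, PSMD or PSME followed by a number, whose mean over the 12 libraries reached 10 normalized counts. There were 42 such rows before the mean was applied and 39 after it, of 16383 genes listed. Of the 39, 36 encode constitutive subunits, activators or assembly chaperones and 3 are interferon-inducible: PSMB10, PSME1 and PSME2. The other 2 inducible subunit genes, PSMB8 and PSMB9, were listed at 0 in every library, and the thymus subunit gene PSMB11 had a mean of 0.954. RNA was sequenced in IMR90, an established line of wild-type human lung fibroblasts. The 4 groups of 3 libraries were proliferating cells that received no treatment, and 3 groups given 20 Gy of ionizing radiation over 10 min, a dose used to make fibroblasts senescent. From day 4 the irradiated cells received DMSO (the solvent), 2 µM palbociclib or 2 µM ruxolitinib, again on days 6, 8 and 10, and were collected on day 11. All comparisons therefore rest on a single cell line, and no irradiated group went without DMSO or a drug.

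The proteasome degrades proteins marked with ubiquitin. Its 20S core is a barrel of alpha and beta rings, and 3 of the beta subunits, PSMB5, PSMB6 and PSMB7, cut the substrate. Under interferon, cells replace these with PSMB8, PSMB9 and PSMB10, which gives the immunoproteasome, known for producing peptides for presentation on MHC class I. The core is opened by a 19S regulator or by other activators. The base of the 19S regulator holds the PSMC ATPases with PSMD1, PSMD2 and PSMD4, and its lid holds other PSMD subunits. Among the other activators is the ring of PSME1 and PSME2 (PA28 alpha and beta), which is also interferon-inducible. Interferon signals pass through JAK kinases, which ruxolitinib inhibits, to STAT and IRF factors. Palbociclib inhibits the cell cycle kinases CDK4 and CDK6.

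Promoters are shown first because interferon factors bind short repeats near the starts of inducible genes. RefSeq promoter sequences (GRCh38.p14), from 250 bases before to 50 bases from the start site on, were matched for 34 of the 39 members. The longest word shared, on either strand, by the promoters of PSMB10, PSME1 and PSME2 was the 12-base GAAAGCGAAAGC. Each stretch below is 150 bases, written 5′ to 3′ on the strand of the gene, with that word or its reverse complement in capitals.
PSMB10: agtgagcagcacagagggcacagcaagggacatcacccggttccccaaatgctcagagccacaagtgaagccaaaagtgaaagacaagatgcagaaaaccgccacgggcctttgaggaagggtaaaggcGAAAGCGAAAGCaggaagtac
PSME1: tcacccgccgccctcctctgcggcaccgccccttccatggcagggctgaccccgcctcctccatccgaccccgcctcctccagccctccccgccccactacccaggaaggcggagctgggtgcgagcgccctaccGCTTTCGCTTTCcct
PSME2: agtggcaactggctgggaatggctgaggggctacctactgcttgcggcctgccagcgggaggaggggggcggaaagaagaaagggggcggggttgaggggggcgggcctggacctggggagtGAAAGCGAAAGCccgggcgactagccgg
PSMB8: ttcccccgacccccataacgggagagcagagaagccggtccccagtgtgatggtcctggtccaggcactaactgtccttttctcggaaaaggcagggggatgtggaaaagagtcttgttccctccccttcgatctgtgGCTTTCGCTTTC
The stretch of PSMB10 is chr16:67936851-67937000 on the minus strand, and the word lies 21 to 10 bases before the start site. The stretch of PSME2 is chr14:24146611-24146760 on the minus strand, with the word 28 to 17 bases before the start. For PSME1, chr14:24136062-24136211 on the plus strand, the word is on the other strand and covers transcribed bases 4 to 15. The stretch of PSMB8 is chr6:32844042-32844191 on the minus strand, ahead of one of its RefSeq start sites, and the word there, also reversed, reaches transcribed base 6.

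Since the word was read out of these promoters, its presence in all 3 inducible members is how it was chosen. It was in 0 of the 31 constitutive members with a promoter, in 11 of 9163 promoters of genes tested (0.120%) and in 16 of 27305 promoters in the table (0.0586%). PSMB8 took no part in the choice of the word and is among the 16. PSMB9 took no part either, and its promoter in the table does not hold the word. The word contains the core of the interferon-stimulated response element, GAAANNGAAA, searched on both strands. That core was in 3 of 3 inducible members, in 2 of 31 constitutive members (PSMA4 and PSMB4), and in 4.01% of the promoters of genes tested. TTCNNNGAA, another interferon motif searched (GAS), was in 0 of 3 inducible members, 6 of 31 constitutive members and 8.95% of promoters of genes tested. PSMB8, which is not a member, has a GAS match 65 to 57 bases before the start site used above, and the promoter of PSMB9 does not. A match describes letters and not a bound site. TGACNNNGC, the core of the antioxidant response element, was in 2 of 3 inducible members, 10 of 31 constitutive members and 19.6% of promoters of genes tested. The RNA of the other 8 tested genes with the 12-base word did not move one way: 3 were higher and 4 lower in irradiated DMSO cells than in proliferating cells, where 33.0% of all genes tested were higher and 39.3% lower. Against DMSO, 1 was higher and 3 lower with palbociclib (26.0% and 22.3% of all genes). With ruxolitinib 2 of the 8 were lower than with DMSO (3.42% of all genes), MYD88, an adaptor of Toll-like receptors (log2 fold change -0.81), and RNF31, a ubiquitin ligase gene next to PSME2 (-0.23). These genes were named after their values were seen.

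The zeros of PSMB8 and PSMB9 cannot be read as absence of expression. Both genes lie in the MHC region of chromosome 6. Of the 67 listed protein-coding genes within 1 Mb of them, 49 had a mean under 1 (73.1%), against 2323 of 15228 over the genome (15.3%). Among these was RPS18, a ribosomal protein gene that every cell uses, with a mean of 0.880 normalized counts. The peptide transporter genes TAP1 and TAP2, neighbours of PSMB8 and PSMB9, had means of 0.0912 and 10.8. The hg38 reference used here holds 261 alternate sequences, extra copies of variable regions, among its 455 sequences. All 31-base words of the PSMB8 and PSMB9 transcripts (100%) also occur on them, in a median of 7 copies. Whether such copies were part of the authors' reference is not given in the sources used here, and their part in the zeros was not tested.

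PSMB3, a structural beta subunit, was the third such gene. Of its transcript's words 99.8% occur on an alternate sequence, while no other of the 42 genes passed 9.93%. PSMB3 was the member with the lowest mean, 15.7 normalized counts with single libraries from 2.71 to 33.1, and the next lowest was PSMB10 at 236.9. Its chromosome 17 neighbours MLLT6, PCGF2, PIP4K2B and CWC25 had means of 9.91, 8.87, 15.5 and 14.2. PSMB3 passed the mean, but its values were too few and too spread to be read as the level of a core subunit, and it is left out of summed levels. PSMB3 was called in none of the 6 comparisons. In 10 members more than 10% of the words occur at several places on the main chromosomes, up to 43.9% in PSME2 and 41.0% in PSMC1, so reads shared with near-identical copies make their levels uncertain.

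**Figure D1:**
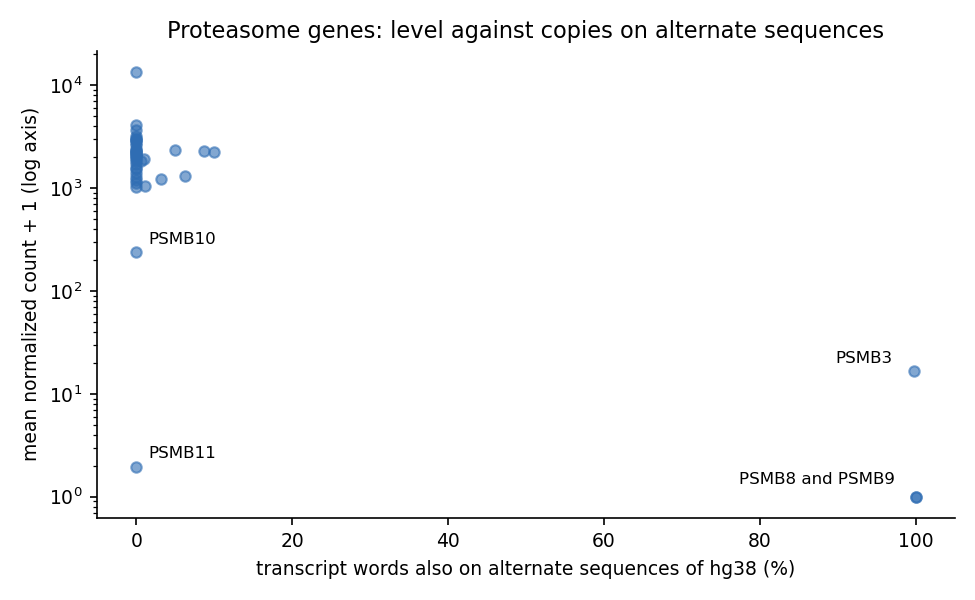
Mean normalized count plus 1 over 12 libraries (log axis) against the percentage of 31-base transcript words that also occur on alternate sequences of hg38, 1 point per gene, 42 genes. PSMB3, PSMB8 and PSMB9 are the 3 genes at 99.8% or 100%, and PSMB11 is the other gene with a low count.

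The recovered reads over the listed genes ran from 14106799 to 21762412 per library. Libraries of a group are named by the number in their column heading, from A116 to A127. Nothing in the labels says whether the 3 libraries of a group came from separate cultures, so p-values measure the spread between these libraries, which may be technical. Library A120 lay above both other palbociclib libraries for 36 of the 38 members other than PSMB3, and A119 lay below both for 28. In the proliferating group A126 was above both others for 27 of 38. Such counts were not taken over all genes, so they are not read as a trait of the proteasome genes. The same libraries differed over all genes by transcript length. In A120 genes with the shortest transcripts stood 0.20 above their group and those with the longest 0.18 below it (log2 medians), in A126 0.15 above and 0.16 below, and in A119 the signs were opposite. Alternatives without A120 and A126, and with each library's length trend removed, were added after the data were seen. Fibroblast markers were present in all libraries, 10 of 10 with a mean of at least 10. Of the 10 immune cell markers 3 reached that mean: CD68 (903.5), SPI1 (22.2) and CD14 (15.3). PTPRC, the defining leukocyte gene, had a mean of 2.83 and CD3E, a T cell gene, 0.468. In bulk RNA, fewer cells with a transcript and less of it per cell cannot be told apart.

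The inducible activator genes fell with both drugs, and in the deposited scaling PSME2 was the inducible gene that rose after irradiation (all 3 rose at the same total, the same upper quartile and with quantile normalization). PSME2 read 1106, 1265 and 1098 normalized counts in proliferating cells and 1635, 1634 and 1560 in irradiated DMSO cells. With palbociclib it read 849.9, 1102 and 985.1, and with ruxolitinib 1033, 1063 and 1052. The DMSO libraries were above every other library, and the palbociclib libraries overlapped both remaining groups, while the ruxolitinib libraries were just below the proliferating ones. Irradiated DMSO cells had 1.39 times the proliferating level (log2 fold change 0.48, SE 0.08, limma adjusted p = 6.8e-05), and this call held under all 20 alternatives. Against DMSO, PSME2 fell by 0.72 on the log2 scale with palbociclib (SE 0.08, adjusted p = 3.72e-06) and by 0.62 with ruxolitinib (SE 0.08, adjusted p = 0.000176).

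PSME1, the partner of PSME2 in the ring, followed another course. It read 1234, 1389 and 1247 normalized counts in proliferating cells and 1428, 1341 and 1311 in irradiated DMSO cells, so these groups overlapped. With palbociclib it read 834.4, 1029 and 932.7, and with ruxolitinib 934.4, 943.7 and 901.4, all below every library of the other 2 groups. The difference after irradiation was 0.08 on the log2 scale (95% interval -0.08 to 0.23, adjusted p = 0.353). It was 0.31 with adjusted p = 0.00234 when libraries were scaled to the same total, 0.23 (0.0172) at the same upper quartile, 0.24 (0.0119) with quantile normalization and 0.13 (0.0475) without A120 and A126. PSME1 fell by 0.55 with palbociclib (SE 0.07, adjusted p = 2.24e-05) and by 0.55 with ruxolitinib (SE 0.07, adjusted p = 0.000201). It was then also below proliferating cells, with log2 fold changes of -0.47 (adjusted p = 2.92e-05) and -0.48 (adjusted p = 2.85e-05). Both genes are on chromosome 14, at 24136194 to 24138962 and 24143365 to 24146610, per the RefSeq gene positions of hg38. Per kilobase of transcript the ratio of PSME1 to PSME2 was 0.902 to 0.934 in the proliferating libraries and 0.675 to 0.807 in the 9 irradiated ones.

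PSMB10, the inducible catalytic subunit that replaces PSMB7, was read at a lower level and did not pass the test in any comparison. It read 201.3, 240.7 and 202.8 normalized counts in proliferating cells and 267.3, 262.8 and 291.4 in irradiated DMSO cells. These groups did not overlap (log2 fold change 0.35, SE 0.16, adjusted p = 0.0621). With palbociclib it read 162.7, 306.5 and 215.9, spanning all other groups, and with ruxolitinib 226.1, 235.0 and 230.1. The log2 fold change against DMSO was -0.31 for palbociclib (adjusted p = 0.13) and -0.25 for ruxolitinib (adjusted p = 0.517). Every ruxolitinib library nevertheless lay below every DMSO library. The limma test takes 1 spread from all 4 groups, and the SD was 72.7 with palbociclib, 15.4 with DMSO and 4.48 with ruxolitinib. The ruxolitinib result is therefore not evidence that PSMB10 was unchanged. For the irradiated DMSO cells against proliferating cells the adjusted p of PSMB10 ranged from 0.00126 to 0.161 over 20 alternatives. It was 0.0298 in the edgeR test, 0.019 in DESeq2 and 0.0346 without A126. For palbociclib against DMSO, leaving out A120, the library at 306.5, gave PSMB10 a log2 fold change of -0.54 with adjusted p = 0.0017, removing the length trend gave -0.43 with 0.00526, and scaling to the same total -0.53 with 0.0129.

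**Figure D2:**
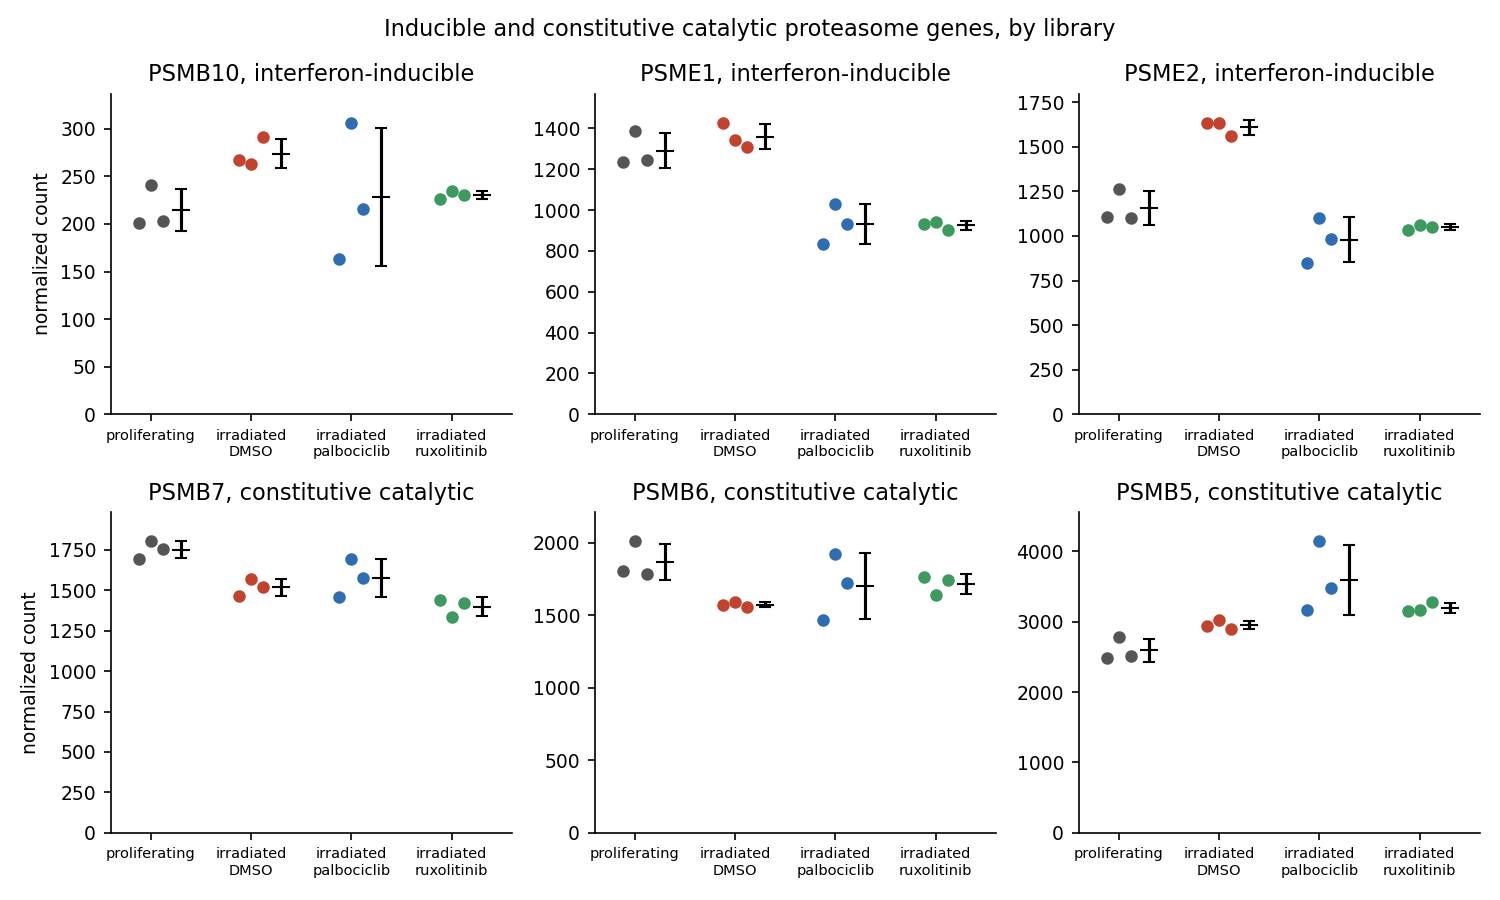
Normalized count (y axis from 0) of the 3 inducible members and the 3 constitutive catalytic genes in each of the 12 libraries by group, with the group mean and SD (n = 3) as black bars. PSME2 is highest in the 3 DMSO libraries, 1560 to 1635, and PSME1 is lowest in the 6 drug libraries, 834.4 to 1029.

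In the deposited scaling most constitutive members were lower in irradiated DMSO cells than in proliferating cells. Of 36, 29 fell and 2 rose, with a median log2 fold change of -0.30 against -0.05 over all genes tested, at a background of 39.3% of genes lower and 33.0% higher. The direction was shared by the parts of the complex: 8 of 8 genes of the 19S lid fell, 6 of 7 of the alpha ring, 4 of 6 ATPases, 3 of 4 structural beta subunits, and both other activators, PSME3 (PA28 gamma, -0.24) and PSME4 (PA200, -0.33). The exceptions were PSMC4 and PSMB5, which rose, and PSMA6, PSMC2, PSMD4, PSMD10 and PSMB3, which were not called. The size of this result depends on the scaling. Setting all libraries to the same total moves the median log2 fold change of all genes by 0.23 here and leaves 10 lower and 5 higher, with all 3 inducible members then higher. With the same upper quartile 16 were lower, and with quantile normalization 14. These 2 scalings move the median of all genes by 0.15 and 0.14. The background shares are for the deposited scaling only.

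The largest decrease was in PSMC3 (RPT5), an ATPase of the 19S base. It read 4266, 4756 and 4404 normalized counts in proliferating cells and 2629, 2622 and 2604 in irradiated DMSO cells, with no overlap. It fell by 0.77 on the log2 scale (SE 0.06, adjusted p = 2.86e-08) and was called under all 20 alternatives. It read 2629, 3194 and 2773 with palbociclib and 2764, 2756 and 2882 with ruxolitinib, again below every proliferating library. PSMA7, an alpha ring subunit, read 3415, 3999 and 3379 in proliferating cells and 2373, 2345 and 2273 in DMSO cells, and fell by 0.62 (SE 0.09, adjusted p = 9.39e-06). PSMC1 (RPT2), another base ATPase, read 2930, 3053 and 3023 against 2095, 2100.1 and 1919 and fell by 0.56 (SE 0.05, adjusted p = 7.79e-08). In each of the 3 every DMSO library lay below every proliferating library. PSMC4 (RPT3), an ATPase of the same ring, went the other way. It read 1950, 2087 and 1925 in proliferating cells and 2216, 2379 and 2234 in DMSO cells (log2 fold change 0.20, SE 0.06, adjusted p = 0.00566), also without overlap. The members of a single ATPase ring thus spanned log2 fold changes from -0.77 to 0.20.

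The constitutive catalytic genes did not move together either. PSMB5, the chymotrypsin-like subunit, read 2488, 2785 and 2511 normalized counts in proliferating cells and 2942, 3016 and 2898 in irradiated DMSO cells. It read 3168, 4143 and 3483 with palbociclib and 3146, 3167 and 3278 with ruxolitinib, so all 9 irradiated libraries lay above the proliferating ones. The log2 fold change against proliferating cells was 0.19 with DMSO (adjusted p = 0.0383), 0.46 with palbociclib (adjusted p = 5.17e-05) and 0.30 with ruxolitinib (adjusted p = 0.00231). The first of these calls is not firm: leaving out A125 gave PSMB5 an adjusted p of 0.124, and it was also lost without A116, A117, A118 or A127, which leaves 1 constitutive member higher in place of 2. PSMB6, the caspase-like subunit, read 1804, 2011 and 1787 in proliferating cells against 1573, 1592 and 1554 in DMSO cells and fell by 0.25 (SE 0.08, adjusted p = 0.0117). That call of PSMB6 was lost at the same total (-0.02, adjusted p = 0.869), at the same upper quartile and with quantile normalization. PSMB7, the trypsin-like subunit, read 1696, 1804 and 1757 against 1464, 1571 and 1519 and fell by 0.21 (SE 0.06, adjusted p = 0.00596). At the same total PSMB7 had a log2 fold change of 0.02.

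A ratio within a library does not depend on its scaling. The catalytic exchange can be followed here only for PSMB10 against PSMB7, because PSMB8 and PSMB9 were listed at 0. The log2 ratio of PSMB10 to PSMB7 was -3.03 ± 0.11 in proliferating cells (SD, n = 3). In irradiated cells it was -2.47 ± 0.10 (DMSO), -2.83 ± 0.35 (palbociclib) and -2.60 ± 0.09 (ruxolitinib). Irradiated DMSO libraries were all above the proliferating ones, a difference of 0.56 with an exact permutation p of 0.1, two-sided. That is the smallest p that 3 against 3 allows, and over the 6 pairs of groups it adjusts to 0.3. The palbociclib difference from DMSO was -0.36 (exact p = 0.2) and that of ruxolitinib -0.13 (exact p = 0.2). Both differences move with single libraries: the palbociclib one was -0.20 without A119 and -0.54 without A120, and the ruxolitinib one -0.08 without A118. Per kilobase, PSMB10 reached between 0.112 and 0.193 of the PSMB7 level in single libraries.

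The inducible members can also be set against the constitutive ones of the same library, again free of scaling. Relative to the mean log2 level of the 35 constitutive members without PSMB3, PSME2 stood at -1.11 ± 0.08 in proliferating cells and -0.33 ± 0.04 in DMSO cells (SD, n = 3). It stood at -1.15 ± 0.10 under palbociclib and -0.97 ± 0.03 under ruxolitinib. PSME1 stood at -0.95 ± 0.05, -0.58 ± 0.08, -1.22 ± 0.07 and -1.15 ± 0.04 in the same order. For both genes the DMSO libraries were above all others. PSMB10 stood at -3.53 ± 0.11, -2.89 ± 0.09, -3.29 ± 0.36 and -3.16 ± 0.03. PSMB5, set against the other constitutive members, was at 0.06 ± 0.05 in proliferating cells and at 0.56 ± 0.02, 0.74 ± 0.11 and 0.65 ± 0.03 in the irradiated groups. These values are a description and carry no test. They also shift when the constitutive members shift. Between proliferating and DMSO cells those 35 had a median log2 fold change of -0.29 in the deposited scaling. PSME1 itself changed by 0.08 and PSMB5 by 0.19, so much of their relative difference there lies in the reference.

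**Figure D3:**
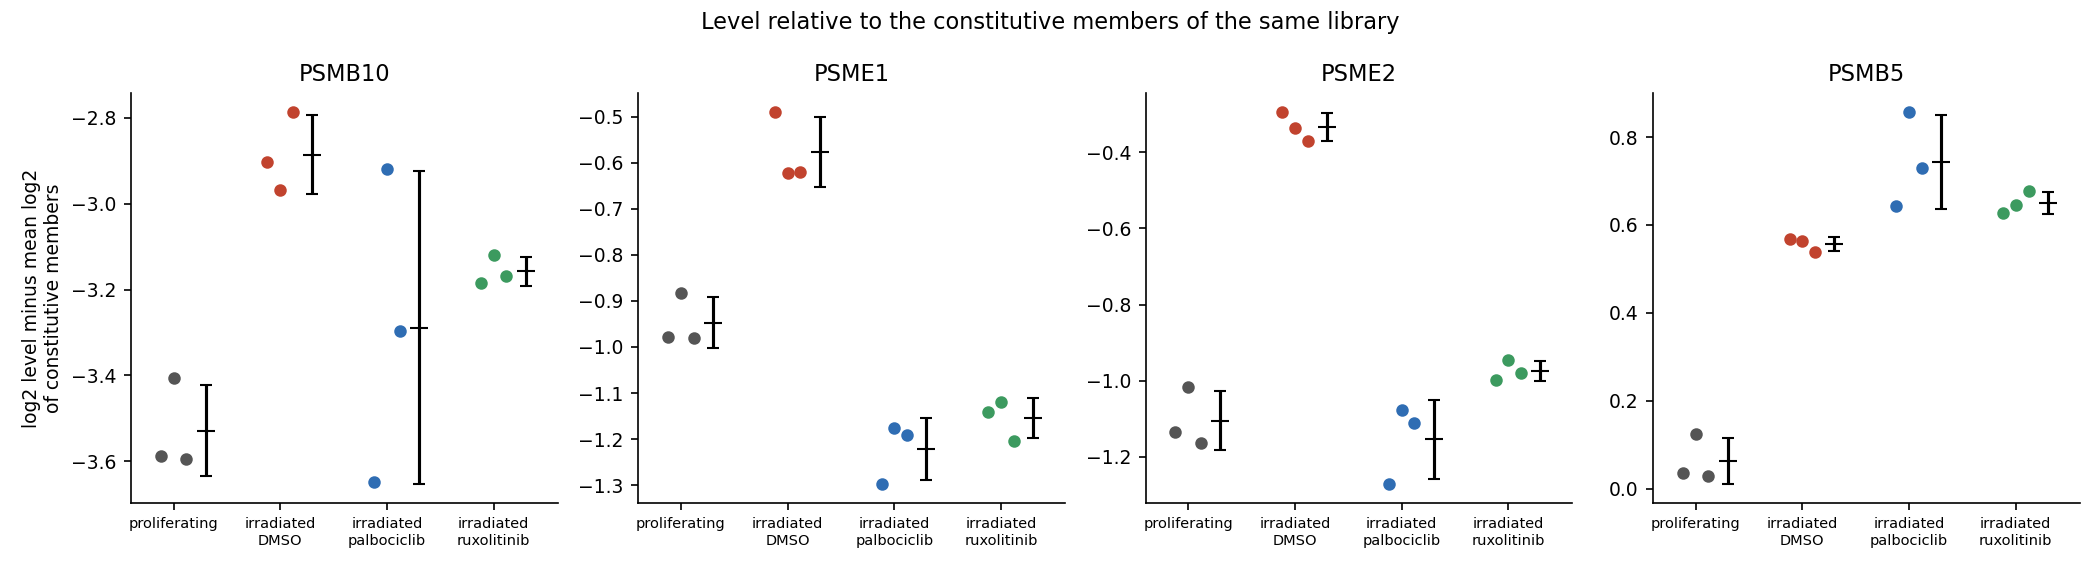
Log2 level of PSMB10, PSME1, PSME2 and PSMB5 minus the mean log2 level of the constitutive members (PSMB3 left out) in the same library, 1 point per library, with group mean and SD (n = 3). The DMSO group is highest for PSME1 and PSME2, at -0.58 and -0.33, while PSMB5 is above its proliferating value of 0.06 in all 3 irradiated groups.

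Palbociclib, compared with DMSO in irradiated cells, lowered 2 of the 3 inducible members (PSME1 and PSME2) and raised 7 of the 36 constitutive ones, with 1 lower. The background was 22.3% of genes lower and 26.0% higher, so the constitutive share is not above it. The constitutive median was 0.09 on the log2 scale against 0.02 over all genes, and this direction turns at the same total, where 1 was higher and 15 lower. Quantile normalization gave 1 higher and 7 lower. The same total moves the median log2 fold change of all genes by -0.23 here. The background shares are for the deposited scaling only. Of the constitutive members called, PSMD9, an assembly chaperone of the 19S base, changed most. It read 802.8, 929.3 and 901.9 normalized counts with DMSO and 1113, 1355 and 1161 with palbociclib, without overlap (log2 fold change 0.46, SE 0.08, adjusted p = 0.000174), and was called under all 20 alternatives. In proliferating cells PSMD9 read 1138, 1278 and 1198, overlapping the palbociclib libraries (log2 fold change 0.00, 95% interval -0.16 to 0.17).

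PSMB1, a structural beta subunit, read 1867, 1992 and 1817 with DMSO and 2254, 2683 and 2167 with palbociclib (log2 fold change 0.32, SE 0.08, adjusted p = 0.00337). PSMA1, an alpha ring subunit, read 2213, 2320 and 2168 against 2563, 2853 and 2516 (0.24, SE 0.05, adjusted p = 0.00212). PSMB5 rose by 0.28 (SE 0.08, adjusted p = 0.008). In these 3 genes every palbociclib library was above every DMSO library. The 3 calls were lost at the same total, with log2 fold changes of 0.09, 0.01 and 0.05, and with quantile normalization, and without A120 PSMB5 was at 0.17 (adjusted p = 0.0257). The decrease was in PSMA6, an alpha ring subunit, at 2101, 2196 and 2222 with DMSO and 1840, 2091 and 1861 with palbociclib (-0.17, SE 0.06, adjusted p = 0.0173). The PSMA6 call was lost without A117, A118, A119 or A121. Leaving out A119 raised the number of constitutive members called higher from 7 to 16. Without both A120 and A126, 3 were lower, and with the length trend removed 4 were lower.

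Ruxolitinib lowered PSME1 and PSME2 against DMSO, and the limma test called 0 of the 36 constitutive members in either direction. The counts were 0 as well at an unadjusted p under 0.05, in edgeR and in DESeq2. The background was 3.42% of genes lower and 1.10% higher. The constitutive median log2 fold change was 0.03 against -0.00 over all genes. Without PSMB3, whose value was -0.33, the constitutive members lay between -0.12 (PSMB7) and 0.14 (PSMB4). A fit of these 2 groups alone called 4 constitutive members higher. The calls of PSME1 and PSME2 as lower held under all 20 alternatives.

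**Figure D4:**
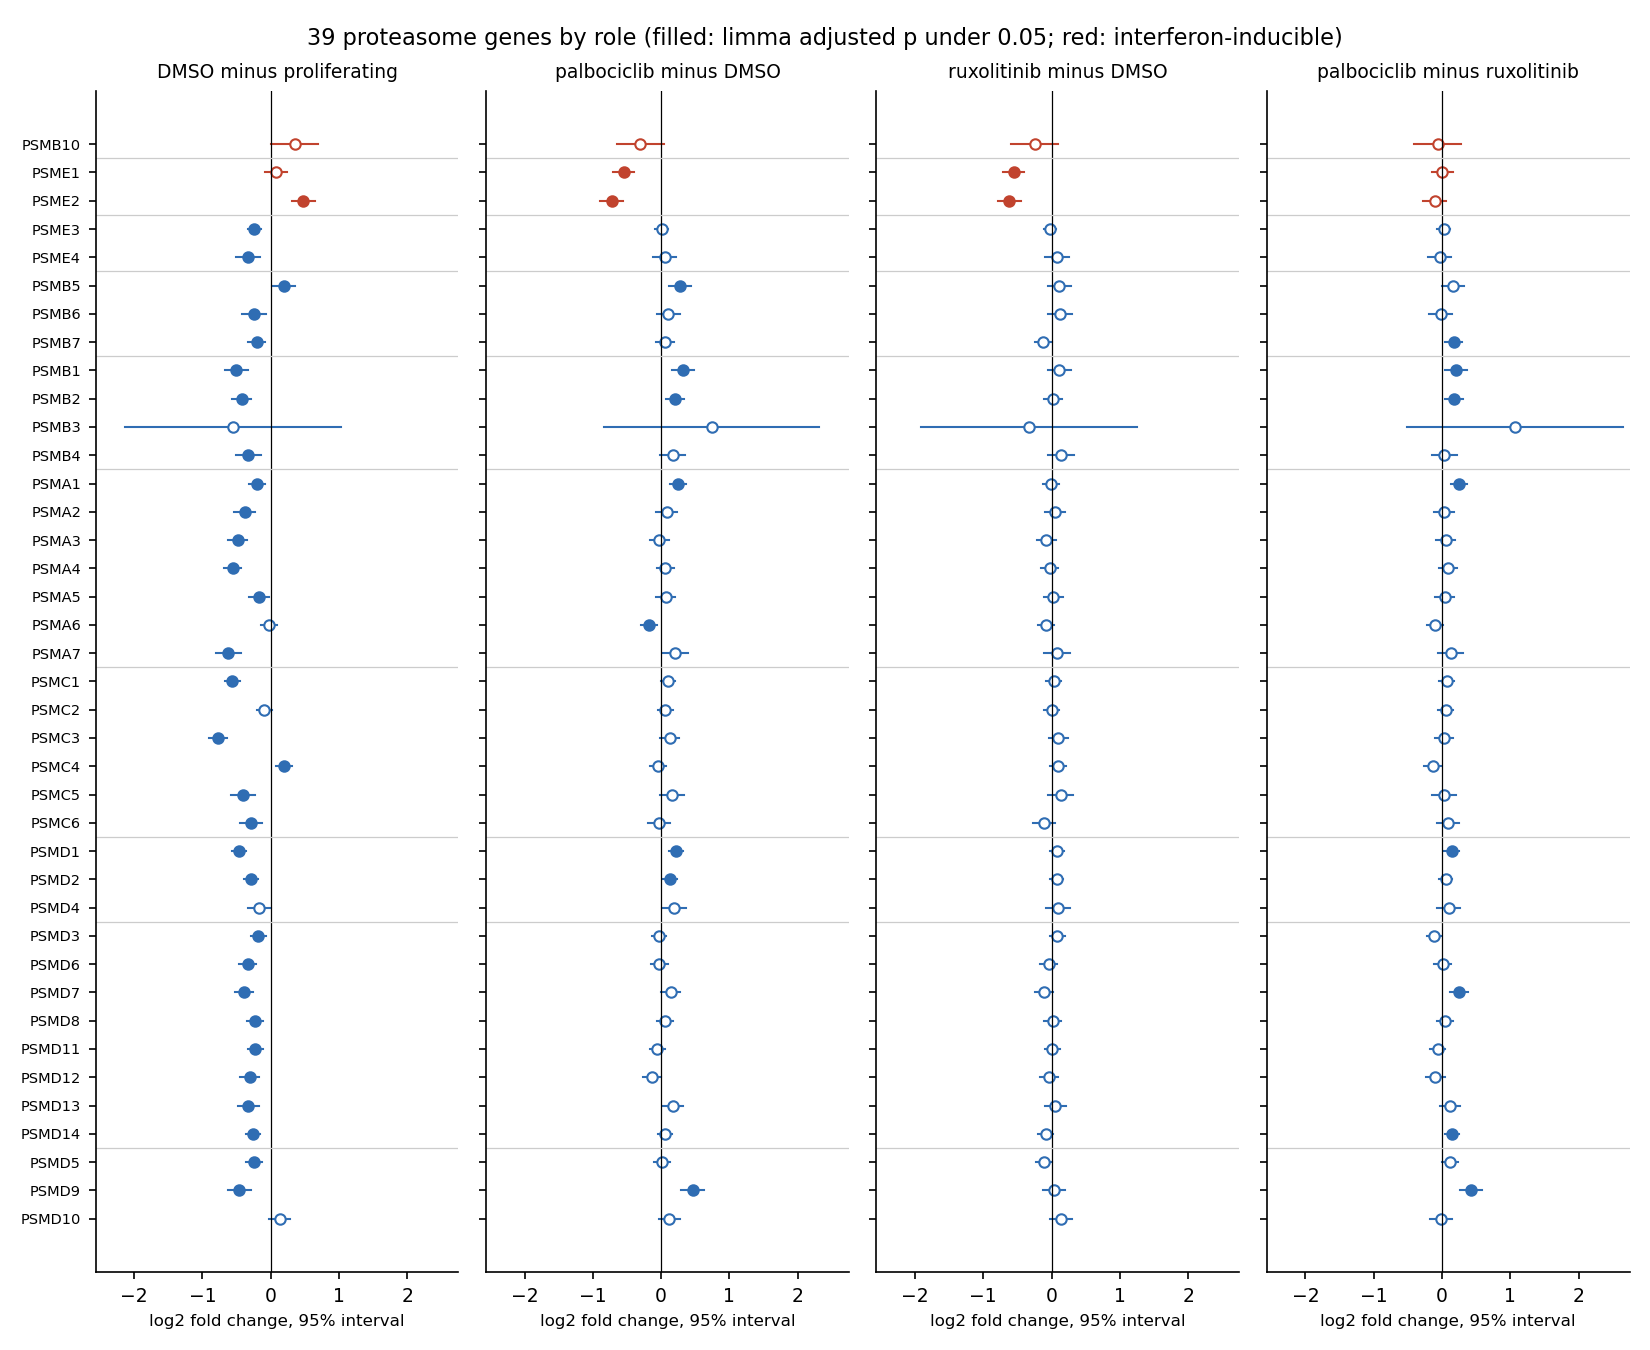
Log2 fold changes with 95% intervals (x axis) of the 39 members, ordered by role with grey lines between roles, in 4 comparisons; filled points passed a limma adjusted p of 0.05 and red marks the inducible genes. Most constitutive genes lie left of 0 in DMSO minus proliferating cells (29 of 36 called, 10 at the same total), while with ruxolitinib PSME1 and PSME2 are the 2 called members.

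Between palbociclib and ruxolitinib the inducible members did not pass the test, and some constitutive members did. Of the 3 inducible members 0 were called between palbociclib and ruxolitinib by limma, edgeR or DESeq2, and 0 at an unadjusted p under 0.05. PSME1 differed by 0.00 on the log2 scale (95% interval -0.15 to 0.16), PSME2 by -0.11 (-0.28 to 0.06) and PSMB10 by -0.06 (-0.40 to 0.28). Without A120, PSME2 was lower with palbociclib than with ruxolitinib (-0.20, adjusted p = 0.043), and 2 inducible members were lower at the same total and without A120 and A126, and 1 with the length trend removed. Of the constitutive members 8 were higher with palbociclib and 0 lower at a background of 22.8% higher and 17.6% lower, so the share called higher is not above it. edgeR and DESeq2 each called 3 higher and 2 lower, and at an unadjusted p under 0.05 limma gave 9 higher and 2 lower. At the same total these counts were 1 and 14, so their direction depends on the scaling. That scaling moves the median log2 fold change of all genes by -0.20, and the background shares are for the deposited scaling only. PSMD9 read 905.0, 894.1 and 896.9 with ruxolitinib, below all palbociclib libraries (0.42, SE 0.08, adjusted p = 0.000471). PSMA1 read 2270, 2182 and 2192 with ruxolitinib and was 0.25 higher with palbociclib (SE 0.05, adjusted p = 0.00183). PSMD7, a lid subunit, read 1724, 1594 and 1623 with ruxolitinib and 1876, 2139 and 1870 with palbociclib (0.25, SE 0.06, adjusted p = 0.00552). The calls of PSMA1 and PSMD7 were lost at the same total (both 0.05) and with quantile normalization. The 8 higher became 4 without A120, A122 or A124 and 5 without A121 or A123, and without A120 there were 2 lower. Without A120 and A126 there were 3 lower, and with the length trend removed 5 higher and 3 lower.

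Against proliferating cells, both drug groups had lower levels of most constitutive genes in the deposited scaling. This depends on the processing: 14 of 36 were lower for ruxolitinib at the same total. For palbociclib the number lower ranged from 16 to 28 over 20 alternatives. With palbociclib 24 of 36 were lower and 3 higher, at a background of 38.6% lower and 35.2% higher, and with ruxolitinib 25 were lower and 3 higher, at 39.5% and 32.6%. These comparisons share the proliferating libraries with the one of DMSO cells. The 3 higher genes were PSMB5, PSMC4 and PSMD10 with either drug. PSMD10 (gankyrin), an assembly chaperone, read 876.8, 930.5 and 952.2 in proliferating cells. It read 1025, 1191 and 1080 with palbociclib (0.25, SE 0.07, adjusted p = 0.00606) and 1073, 1156 and 1091 with ruxolitinib (0.27, SE 0.07, adjusted p = 0.00446). PSMC4, at 2045, 2308 and 2272 with palbociclib and 2461, 2383 and 2426 with ruxolitinib, was 0.15 higher with palbociclib (adjusted p = 0.0252) and 0.29 higher with ruxolitinib (adjusted p = 0.000288). The palbociclib call of PSMC4 was lost without A120, A121, A125 or A127, in a fit of these 2 groups alone, and with the length trend removed (0.06, adjusted p = 0.171).

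Among the genes lower than in proliferating cells, PSMC3 fell by 0.65 with palbociclib (adjusted p = 2.02e-07) and by 0.67 with ruxolitinib (adjusted p = 1.36e-07). The alpha ring genes PSMA3 and PSMA4 came next. PSMA3 read 1651, 1687 and 1651 in proliferating cells, 1071, 1304 and 1134 with palbociclib and 1164, 1079.6 and 1132 with ruxolitinib. PSMA4 read 2526, 2417 and 2537, then 1689.8, 1917 and 1707, then 1636, 1679 and 1674. For both genes no drug library reached a proliferating one. Of the inducible members, PSME1 and PSME2 were lower with palbociclib than in proliferating cells and PSME1 with ruxolitinib. PSME2 was at -0.24 with palbociclib (adjusted p = 0.0129), where the highest palbociclib library reached into the proliferating range. That call was lost without A119 or A126, which leaves 1 of the 3. With ruxolitinib PSME2 was at -0.14 (95% interval -0.31 to 0.04, adjusted p = 0.141), and passed the test with the length trend removed (-0.22, adjusted p = 0.000315), which makes 2 inducible members lower.

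Genes of the interferon signal, which switches the inducible subunits on, rose after irradiation more often than they fell, and several fell with either drug. Of 14 tested genes of that list 7 rose and 2 fell in irradiated DMSO cells against proliferating cells (33.0% and 39.3% of all genes). Against DMSO, 6 fell and 1 rose with palbociclib (22.3% and 26.0% of all genes), and 6 fell and 1 rose with ruxolitinib (3.42% and 1.10%). IRF9, the DNA-binding part of the interferon-response complex, had means of 355.3 ± 33.4 normalized counts in proliferating cells and 1549 ± 28.1 in irradiated DMSO cells (SD, n = 3). Under palbociclib its mean was 515.2 ± 71.5 and under ruxolitinib 301.9 ± 0.605. IRF9 thus rose by 2.13 on the log2 scale after irradiation (SE 0.09, adjusted p = 1.23e-11). Against DMSO it fell by 1.60 with palbociclib (adjusted p = 2.51e-09) and by 2.36 with ruxolitinib (adjusted p = 1.15e-10). The difference between the drugs passed the test (0.76 higher with palbociclib, adjusted p = 1.12e-05). IRF1, another activator of immunoproteasome genes, was lower with palbociclib than with ruxolitinib (-0.35, adjusted p = 0.00792). NLRC5, which drives MHC class I genes, had means of 516.5 ± 20.8 with DMSO, 276.5 ± 19.7 with palbociclib and 276.6 ± 6.02 with ruxolitinib, all ruxolitinib and palbociclib libraries being below the proliferating ones at 475.0 ± 14.3. Of the ligands, IFNB1 had a mean of 1.28, IFNG of 0.0964, and TNF was listed at 0.

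Of 27 genes that build or regulate the proteasome, 15 were lower and 3 higher after irradiation in the deposited scaling, where 39.3% of all genes were lower and 33.0% higher. edgeR called 13 of them lower and DESeq2 12. PSMG3, a chaperone of alpha ring assembly, fell by 0.99 (SE 0.11, adjusted p = 1.13e-06), and UCHL5, a deubiquitinase of the 19S regulator, by 1.15 (SE 0.08, adjusted p = 1.9e-09). ZFAND2A, a stress-inducible 19S cofactor, rose by 1.43 (SE 0.09, adjusted p = 5.63e-10). With palbociclib against DMSO 10 of 27 rose and 3 fell, against 26.0% and 22.3% of all genes, and edgeR called 7 higher and 4 lower. Among them were RAD23B, a shuttle that brings ubiquitinated proteins to the proteasome (0.54, SE 0.04, adjusted p = 7.46e-08), and DDI2, the protease that activates NFE2L1 (-0.89, SE 0.26, adjusted p = 0.0103). DDI2 was low in A120, at 33.9 normalized counts against 85.2 and 62.2 in the other palbociclib libraries, and its log2 fold change was -0.53 without A120 (adjusted p = 0.0413). The DDI2 call was lost with quantile normalization. With ruxolitinib 0 of 27 were called by limma, edgeR or DESeq2, and 1 was higher and 1 lower at an unadjusted p under 0.05. Over all genes limma called 3.42% lower and 1.10% higher with ruxolitinib, so 0 of 27 is close to the background. NFE2L1 itself, the factor that raises proteasome genes when proteasome activity is short, is named after its values were seen. Its means were 5956 ± 113 in proliferating cells and 8404 ± 47.0 in DMSO cells, then 10119 ± 593 under palbociclib and 8824 ± 129 under ruxolitinib. NFE2L1 was thus higher in each irradiated group (0.50, adjusted p = 1.39e-07 with DMSO). In DMSO cells 29 of 36 constitutive members were lower in the deposited scaling, but 10 at the same total. A link between NFE2L1 and these members was not tested. Of the ubiquitin precursor and activation genes, RPS27A, a fusion of ubiquitin and a ribosomal protein, fell by 0.53 after irradiation (SE 0.09, adjusted p = 4.31e-05).

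Immune cell markers also differed between the groups. The summed level of the 10 immune markers was 554.2 to 579.0 in proliferating libraries, 1267 to 1348 with DMSO, 729.3 to 835.0 with palbociclib and 1121 to 1190 with ruxolitinib. CD68, a lysosomal protein gene used as a macrophage marker, makes up most of these sums, with 538.0 to 562.4 in proliferating libraries and 1184 to 1277 with DMSO. In the sums of the 10 markers each irradiated group was above the proliferating one, and both drug groups were below DMSO. Of the 3 immune markers tested, limma called 2 lower with palbociclib (22.3% of all genes) and 0 with ruxolitinib (3.42%), both against DMSO. Sums of the 5 endothelial markers were 1681 to 1949 in proliferating libraries, 2389 to 2554 with DMSO, 3501 to 4380.1 with palbociclib and 2247 to 2254 with ruxolitinib. Those of the 5 epithelial markers were 99.0 to 143.1, 267.3 to 310.2, 379.6 to 502.5 and 297.8 to 351.2 in the same order. The part of these markers in the inducible members' values was not tested. Fibroblast markers, at 408919 to 419590 with DMSO, summed to 822420 to 854897 in proliferating libraries. They summed to 651681 to 683887 with palbociclib and 515852 to 520021 with ruxolitinib.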

How the data were processed

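Poly(A) RNA extracted with TRIzol was sequenced, per the labels. Per the submitters' processing notes, Trimmomatic 0.38.1, HISAT2 2.2.1, featureCounts 2.0.3 and DESeq2 2.11.40.8 were used with build hg38 (GRCh38); annotation, strand setting and alternate sequences are not given in the sources used here. The authors deposited normalized counts, a signal that is never negative. All 160380 values above 0 (100%) were whole multiples of the value of 1 read in their library at a tolerance of 0.01, so whole reads were recovered. The table ends at Entrez gene 140467, and genes with higher numbers, PSMA8 among them, were not analysed here.

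Columns carry the group and a library number but no replicate number, so no pairs were formed. limma 3.58.1 (R 4.3.3), with variances following the mean, was fitted to log2(normalized count + 1) with 4 group means over 12 libraries, for the 11242 genes with a mean of at least 10. P-values were adjusted by Benjamini-Hochberg over all of them and called under 0.05. Every fold change is on that log2 scale, which understates changes of low genes. edgeR 4.0.16 (quasi-likelihood, TMM) and DESeq2 1.42.0 on recovered reads, other pseudocounts, filters and scalings and leaving out each library were alternatives. The fit was tested on simulated data. Pair ratios used exact permutation tests. Ratios of PSMB8 to PSMB5 and PSMB9 to PSMB6 could not be computed.

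Members and gene lists were chosen with earlier results of these data known. Named genes are the inducible members, their catalytic partners, the 3 other members with the largest called change in each direction and up to 4 called genes per list. MYD88, RNF31, NFE2L1, PTPRC, CD3E, CD68, SPI1, CD14 and the genes near PSMB8, PSMB9 and PSMB3 fall outside this rule and were picked with their values in view. A few genes of the lists are not reported here. Transcript words of 31 bases were counted on hg38 with GENCODE v44 transcripts.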

Additional observations from a re-analysis of the deposited data

How the results depend on the processing

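No paired analysis was possible because the columns carry no replicate numbers. Counts of members are given as higher or lower in the first group named. Shares of all genes called were taken for the main limma test only, so counts under the alternatives stand without a background. For irradiated DMSO against proliferating cells, inducible members higher were 1. They were 3 at the same total, the same upper quartile, quantile normalization and without A120 and A126, and 2 in edgeR, DESeq2, the fit of 2 groups and with the length trend removed. Constitutive members higher were 2, against 5 at the same total, 4 with quantiles, and 1 without a trend or at adjusted p under 0.01. Constitutive members lower were 29, against 10 at the same total, 16 at the upper quartile and 14 with quantiles. For palbociclib against DMSO, constitutive members higher were 7, against 1 at the same total and with quantiles. Constitutive members lower were 1, against 15 at the same total, 2 at the upper quartile and in edgeR, 7 with quantiles, 0 in the fit of 2 groups and at adjusted p under 0.01, 3 without A120 and A126 and 4 with the length trend removed. For ruxolitinib against DMSO, constitutive members higher were 0, against 4 in the fit of 2 groups. For palbociclib against ruxolitinib, inducible members lower were 0, against 2 at the same total and without A120 and A126, and 1 with the length trend removed. Constitutive members higher were 8, against 1 at the same total and with quantiles, 2 at the upper quartile, 3 in edgeR, DESeq2 and at adjusted p under 0.01, 4 without a trend and in the fit of 2 groups, and 5 with the length trend removed. Constitutive members lower were 0, against 14, 5 and 6 under the 3 scalings, 2 in edgeR and DESeq2, 3 without A120 and A126 and with the length trend removed. For palbociclib against proliferating cells, inducible members lower were 2, against 1 at adjusted p under 0.01, at the upper quartile, with quantiles and in the fit of 2 groups. Constitutive members lower were 24, with 16 to 28 over 20 alternatives. For ruxolitinib against proliferating cells, constitutive members lower were 25, against 14 at the same total and 16 at the upper quartile, and inducible members lower were 1, against 2 with the length trend removed. The cause of these changes was not tested. The same total moved the median gene by 0.23 (DMSO against proliferating), -0.23 (palbociclib against DMSO), -0.20 (palbociclib against ruxolitinib) and 0.20 (ruxolitinib against proliferating), and the upper quartile by 0.15 in the first and 0.17 in the last of these.

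Leaving out 1 library at a time gave 1 to 2 inducible members higher, 1 to 2 constitutive members higher and 28 to 30 lower for DMSO against proliferating cells. It gave 5 to 16 higher and 0 to 1 lower constitutive members for palbociclib against DMSO, and 4 to 10 higher, 0 to 2 lower and 0 to 1 inducible members lower for palbociclib against ruxolitinib. For palbociclib against proliferating cells it gave 1 to 2 inducible members lower. An arm left with 2 libraries was assumed to vary like the others. At the same total PSMB7 turned to 0.022 (DMSO against proliferating), -0.17 (palbociclib against DMSO) and -0.029 (palbociclib against ruxolitinib), and PSME1 to -0.20 (palbociclib against ruxolitinib). The calls of PSME1 and PSME2 as lower with either drug than with DMSO held under all 20 alternatives.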
